A study of Mus musculus with 4 samples.

Results

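Hdac1, Hdac2, Hdac3 and Hdac8, the class I histone deacetylase genes, and Ncor1, Sin3a and Rcor1, which encode corepressor scaffolds, were examined for accessible chromatin in mouse bone marrow-derived macrophages. The peak lists of 4 libraries were merged wherever peaks overlapped by at least 1 bp, which gave 91858 regions. Regions inside a gene, or within 50 kb of it with no other protein-coding gene nearer, were taken for that gene. The 7 genes had 19 regions by this rule. The label was checked by symbol, and all 7 were found among 21900 protein-coding genes of the RefSeq table for GRCm38.p6, the assembly behind mm10.

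Knockout (KO) libraries came from mice of the genotype Ezh2fl/fl;LysM-Cre+/-, in which Cre is expressed from the Lyz2 locus of myeloid cells and removes the floxed part of Ezh2. Wild-type (WT) libraries came from littermate controls, whose alleles are not given further. There were 2 libraries per genotype. All 4 shared the same culture, 7 to 10 days in L929 cell medium, and the same treatment, 24 hours in conditioned medium of Hepa1-6 cells, a liver cancer line from mouse. Accessibility was measured by ATAC-seq, in which a transposase cuts open chromatin and inserts sequencing adapters. The labels give no age, sex or number of mice and do not say whether replicates were separate cultures, so each SD is the spread between these libraries.

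Class I deacetylases remove acetyl groups from histone lysines and act mostly inside large complexes. HDAC1 and HDAC2 work as a pair in the SIN3, NuRD and CoREST complexes. HDAC3 is switched on by the NCoR and SMRT corepressors. HDAC8 acts without such a scaffold and is known, in human cells, for deacetylating the cohesin subunit SMC3. In macrophages, NCoR with HDAC3 is known for holding inflammatory genes silent until a stimulus arrives. EZH2, whose gene carries the floxed alleles, methylates lysine 27 of histone H3, a residue that must first be free of acetyl groups.

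The lists held 67055 and 71111 peaks in KO and 69210 and 72887 in WT. The highest fold in a list was 45.5 in KO replicate 1 and 25.2 in KO replicate 2, against 45.4 in WT replicate 1 and 25.5 in WT replicate 2, so it moved with the replicate number and not with genotype. Peak number was also lower in replicate 1 than in replicate 2 of each genotype. The files hold no read counts, so depth is unknown, and a missing peak cannot be told from a weak one. Regions within 1 kb of an annotated gene end were called in all 4 libraries for 10 of 10 macrophage marker genes, among them Spi1, Csf1r and Adgre1. The same held for 1 of 6 B cell markers (Cd79a), 1 of 6 T cell (Cd4), 1 of 5 neutrophil (S100a8), 1 of 6 hepatocyte (Apoa1) and 2 of 4 erythroid markers (Klf1 and Hbb-bs). In the same order, 3, 4, 4, 4 and 2 markers had none in any library, among them Cd3e, Mpo, Afp and Gata1. Ebf1, Ms4a1, Tcf7 and Alb had a region in some libraries only. At the start of Ezh2, a region on chromosome 6 (47594084 to 47595538) had fold values of 6.24 and 5.62 in KO, against 5.52 and 5.15 in WT. This region does not report on the deleted part of the gene, whose position is not given.

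Of the 19 regions, 12 were called in all 4 libraries, 4 in 3 libraries and 3 in a single library. The share called in all 4, 63.2%, stood beside 59.5% of all regions assigned to a gene. No region was KO-only (both KO libraries and neither WT library), where 1.44% of all assigned regions were, and none was WT-only, where 1.94% were. With 1 library left out, and so a single library standing for its genotype, the KO-only count was 1 without KO replicate 2 or WT replicate 2, where 5.98% and 4.15% of all assigned regions met that rule. The WT-only count was then 2 without KO replicate 1 and 1 without each of the other libraries in turn, beside 4.0% of assigned regions without KO replicate 1 and 5.61% to 9.35% without another. By library, 16 and 14 of the 19 regions were called in KO, against 16 and 17 in WT. Matching shares of all assigned regions were not computed for single libraries, so these counts are not read as a genotype difference. Each gene had a gene-start region, the region covering or nearest to its annotated start. For Hdac1 and Hdac3, whose starts were not given, it is the region covering or nearest to an annotated gene end. All 7 of these were called in all 4 libraries, as were 78.9% of the gene-start regions of 17559 genes with a region. The regions missing from some libraries were 6 of the 10 at Rcor1 and 1 of 2 at Ncor1. The median width was 834 bp over the 12 regions called throughout and 513 bp over all 53062 such regions. These sets differ in kind, since 7 of the 12 were gene-start regions, while 9567 of the 53062 touched an annotated promoter window. The medians are therefore not a like comparison. A peak sums over many cells, so fewer cells with open chromatin and less open chromatin per cell cannot be told apart.

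Fold, as used below, is the enrichment over background that the broadPeak format holds for each peak, as deposited by the authors. Fold percentile is the rank of that value within its own list, from 0 for the weakest peak to 100 for the strongest. A percentile describes standing within a list and is no measure of a change in accessibility. With 2 libraries against 2, the smallest two-sided p of an exact permutation test is 0.333, so that test could not pass a threshold of 0.05, and no test was run on single regions. Values are described instead by whether both KO values lie above or below both WT values.

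Hdac1 encodes the founding member of the class and a catalytic subunit of the SIN3, NuRD and CoREST complexes. Its only region was a sharp peak at the higher-coordinate end of the gene (mm10, chromosome 4, 129542617 to 129543142, gene 129516104 to 129542646). Most of the region lay outside the gene, and its inner edge reached 29 bp inward from that end. Fold was 9.68 and 9.39 in KO, against 8.54 and 8.45 in WT. This was the strongest region of the 7 genes. It ranked 608 and 597 from the top in the KO lists, against 1334 and 1169 in the WT lists, which are fold percentiles of 99.1 and 99.2 in KO and 98.1 and 98.4 in WT. Both KO values were above both WT values, with a mean difference of 0.893 percentage points. Peak width was 523 and 477 bp in KO, against 502 and 520 bp in WT, so the genotypes overlapped. Within 50 kb of Hdac1 there were 10 regions in all, and the other 9 lay nearer to its neighbours, such as Marcksl1, 123 bp away.

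Hdac2 encodes the paralog and usual partner of HDAC1. Unlike Hdac1, it stood alone, with its nearest protein-coding neighbour Marcks 131354 bp away. Its gene-start region (chromosome 10, 36974036 to 36975337) covered the annotated start at 36974544. Fold was 6.58 and 6.78 in KO, against 5.87 and 6.48 in WT, and the fold percentile was 84.0 and 88.1 in KO, against 77.1 and 87.3 in WT. Both KO folds were above both WT folds, but in percentile KO replicate 1 lay between the WT libraries. The mean difference in percentile was 3.83 points, and -1.25 without WT replicate 1. Ranked by −log10 q it was 1.54 points. The peaks were 1180 and 1199 bp wide in KO, against 1299 and 1106 bp in WT, more than a kilobase in each library. The 300-base promoter window around the start, from 250 bases before it to 50 after, lay wholly inside the peak of every library. That window held 36 CpG and 69.7% G and C.

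A second region of Hdac2 lay 12487 bp beyond the far end of the gene (chromosome 10, 37014376 to 37014546). It was narrow and strong, with fold percentiles of 92.0 and 90.7 in KO, against 91.7 and 89.2 in WT. Its peaks ended at the same base in all 4 libraries. Their widths were 171 and 170 bp in KO, against 169 and 140 bp in WT, the only case of the 12 in which both KO peaks were wider than both WT peaks. The gap between KO replicate 2 and WT replicate 1 was a single base pair.

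Hdac3 encodes the enzyme of the NCoR and SMRT complexes. Its region (chromosome 18, 37954711 to 37955655) covered the higher-coordinate end of Hdac3 and the nearby end of Rell2, 39 bp away, so it counts for both genes. Fold was 5.45 in each KO library, against 5.86 and 6.17 in WT. Fold percentile was 68.3 and 71.1 in KO, against 77.1 and 83.7 in WT. Both KO libraries were below both WT libraries, with means of 69.7 ± 1.97 in KO and 80.4 ± 4.70 in WT (SD, n = 2 each) and a difference of -10.7 points. Leaving out 1 library at a time gave differences from -14.0 to -7.36. Ranked by −log10 q, the difference was -5.59 points. The peaks were 754 and 798 bp wide in KO, against 939 and 778 bp in WT, and overlapped between genotypes. Within 50 kb there were 14 regions, most of them nearer to other genes of this gene-dense stretch.

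Hdac8 encodes the class I enzyme that works without a corepressor scaffold. The gene spans 220744 bp of chromosome X and had 1 region in all, at its start (102504797 to 102505519). The annotated start at 102505158 was covered in every library. Fold percentile was 49.1 and 40.2 in KO, against 57.2 and 55.9 in WT. As at Hdac3, both KO values were below both WT values. The means were 44.7 ± 6.29 in KO and 56.5 ± 0.950 in WT (SD, n = 2 each), a difference of -11.9 points, the most negative of the 12. Without KO replicate 2 the difference was -7.43 points. Peak width was 408 and 676 bp in KO, against 360 and 431 bp in WT. From the annotated start, the wide peak of KO replicate 2 reached 361 bp inward, beside 99 bp in KO replicate 1 and 55 and 69 bp in WT. That start lies inside the RefSeq gene, whose edge is at 102505381. The promoter window held 6 CpG and 49.7% G and C, so it was far poorer in CpG than that of Hdac2. Fold percentiles and peak widths by library at the gene-start regions and at the other regions called throughout are plotted here.

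**Figure D1:**
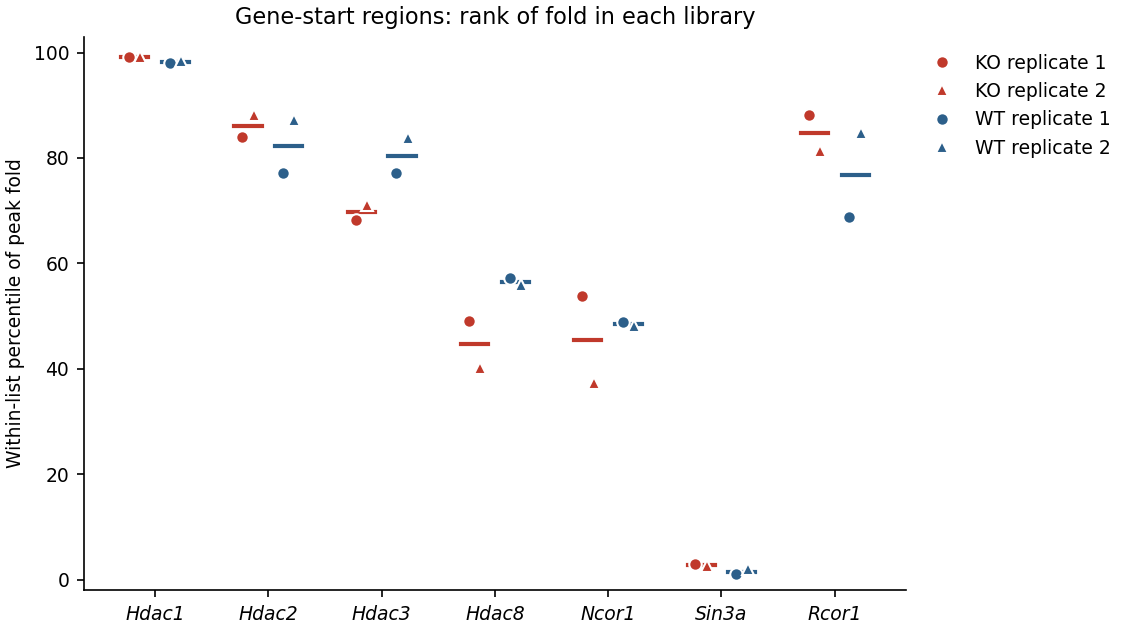
Within-list percentile of peak fold (vertical axis, 0 to 100) in the gene-start region of each of the 7 genes, with KO on the left of each pair and WT on the right, a point per library and a bar at the mean of 2 libraries. Hdac1 sits above 98 in all 4 libraries and Sin3a below 4, while Hdac3 and Hdac8 are the genes with both KO points below both WT points.

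**Figure D2:**
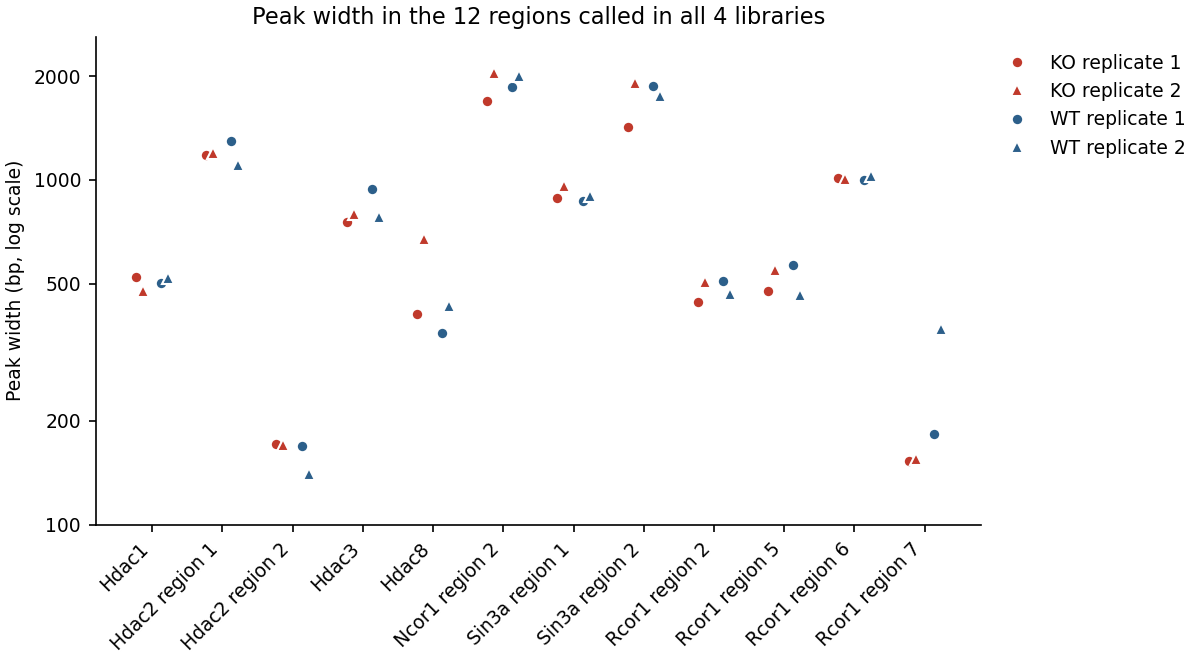
Peak width in bp (vertical log axis) in each of the 12 regions called in all 4 libraries, a point per library, KO on the left of each pair. Ncor1 and the start of Sin3a are the widest, and at Rcor1 region 7 both KO peaks (153 and 155 bp) are narrower than both WT peaks (183 and 369 bp).

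Ncor1 encodes the nuclear receptor corepressor, the scaffold that binds and activates HDAC3. RefSeq gives it starts at 62457332 and 62438515 on chromosome 11, minus strand. The region over the first of these positions (62456609 to 62458681) was the widest of the 19, at 2073 bp, and at least as wide as 99.7% of regions called in all 4 libraries. It also covered the start of Pigl, a gene on the plus strand whose start is at -1109 bp, on the far side of the Ncor1 start. Peak width was 1694 and 2044 bp in KO, against 1861 and 2004 bp in WT. Fold percentile was 53.9 and 37.2 in KO, against 48.9 and 48.1 in WT. The WT values lay between those of the KO libraries, and the SD in KO was 11.8 points, against 0.560 in WT. The KO-minus-WT difference was -2.90 points. It was 5.44 without KO replicate 2 and -11.2 without KO replicate 1, so its direction rested on a single library, and by −log10 q rank it was 1.66.

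The other Ncor1 start, 18817 bp further into the gene, had no peak in any library. Its nearest region was 18094 bp away. The RefSeq windows around both starts (GRCm38.p6, minus strand) are shown because they differ in base content as well as in peaks. Capitals mark any of 6 motifs searched on both strands, which were the GC box GGGCGG, the ETS core CCGGAAG, the CCAAT box, the cyclic AMP response element TGACGTCA and exact 10-letter YY1 and NRF1 motifs. The response element and the NRF1 motif matched none of the 7 windows of these genes.
Ncor1 called start, chr11:62457283-62457582: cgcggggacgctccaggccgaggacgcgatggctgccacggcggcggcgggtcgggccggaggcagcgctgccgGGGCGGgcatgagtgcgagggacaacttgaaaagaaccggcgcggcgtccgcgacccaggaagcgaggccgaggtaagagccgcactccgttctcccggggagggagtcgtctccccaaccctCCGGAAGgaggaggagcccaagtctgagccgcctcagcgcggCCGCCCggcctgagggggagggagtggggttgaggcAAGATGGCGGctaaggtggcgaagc
Ncor1 uncalled start, chr11:62438466-62438765: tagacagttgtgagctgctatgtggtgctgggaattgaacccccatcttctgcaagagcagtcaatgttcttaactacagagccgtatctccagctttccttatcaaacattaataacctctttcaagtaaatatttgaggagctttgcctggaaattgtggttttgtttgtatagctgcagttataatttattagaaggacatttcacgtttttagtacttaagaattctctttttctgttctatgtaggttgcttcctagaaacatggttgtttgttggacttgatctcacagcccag
The called window held 36 CpG and 72.3% G and C, with 2 GC boxes, an ETS core and, after the start, a YY1 motif. The uncalled window held 2 CpG and 38.3% G and C and none of these letters. Of all 32851 promoter windows, 35.7% held a GC box, 8.86% an ETS core and 0.852% a YY1 motif. Among windows in a region called in all 4 libraries, these shares were 65.0%, 19.1% and 2.13%. A motif match is a description of the letters and not a bound site. The 7 windows came from 5 of the 7 genes, since Hdac1 and Hdac3 had none. Of these 7 windows, 5 lay in a region called in all 4 libraries, as did 38.1% of all promoter windows. Over all promoter windows, the median CpG count was 22 in those that did so and 4 in the rest. The lone further region of Ncor1, 153 bp wide and inside the gene (62371163 to 62371315), was called in WT replicate 1 only, at fold percentile 7.05.

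Sin3a encodes the scaffold of the SIN3 complex, which carries HDAC1 and HDAC2. RefSeq gives starts at 57072040 and 57076376 on chromosome 9, plus strand. The region over the downstream start (57075303 to 57077242) was 1940 bp wide, with peaks of 1428 and 1911 bp in KO, against 1867 and 1749 bp in WT. KO replicate 1 stood apart in its upstream edge, at -561 bp from the start, while the edges of the other 3 libraries lay at -1073 bp in KO replicate 2 and at -1068 and -1040 bp in WT. Fold in this region was only 2.83 and 2.70 in KO, against 2.60 and 2.69 in WT. These were fold percentiles of 3.02 and 2.62 in KO, against 1.14 and 1.94 in WT, the lowest of the gene-start regions. Both KO values were above both WT values, by 1.28 points on average.

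The rank of this region depended on the column that was ranked. By the deposited −log10 q it stood at percentiles 77.0 and 78.8 in KO, against 68.0 and 73.5 in WT. Of 662 regions called in all 4 libraries with a mean fold percentile of at most 5, only 6 (0.906%) had a mean −log10 q percentile of 70 or more, and the Sin3a start was among them. Both limits were set after its values were seen. Among 1295 regions at least 1500 bp wide and called in all 4 libraries, the median of the mean fold percentile was 51.9 and 5% lay below 11.9. Over all regions called in all 4 libraries, of any width, that median was 60.7. The cause of the mismatch between the columns was not tested.

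Sin3a also had a region between its starts (57073021 to 57073982), 981 bp downstream of the upstream one. Its peaks began within a few bases of each other in all 4 libraries, from -3355 to -3351 bp relative to the downstream start. Width was 888 and 958 bp in KO, against 871 and 900 bp in WT. Fold percentile was 30.8 and 23.0 in KO, against 17.9 and 25.8 in WT, and −log10 q percentile was 94.4 and 92.6 in KO, against 89.7 and 92.6 in WT. This region thus showed the same mismatch, to a lesser degree. The upstream start itself had no peak in any library. Both windows are shown (GRCm38.p6, plus strand), with the same motifs in capitals.
Sin3a called start, chr9:57076126-57076425: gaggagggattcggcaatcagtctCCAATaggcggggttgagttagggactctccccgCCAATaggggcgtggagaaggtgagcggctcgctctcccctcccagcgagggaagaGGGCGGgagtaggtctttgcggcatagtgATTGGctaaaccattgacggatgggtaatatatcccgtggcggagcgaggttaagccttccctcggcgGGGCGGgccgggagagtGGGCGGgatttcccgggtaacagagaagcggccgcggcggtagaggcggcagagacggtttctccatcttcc
Sin3a uncalled start, chr9:57071790-57072089: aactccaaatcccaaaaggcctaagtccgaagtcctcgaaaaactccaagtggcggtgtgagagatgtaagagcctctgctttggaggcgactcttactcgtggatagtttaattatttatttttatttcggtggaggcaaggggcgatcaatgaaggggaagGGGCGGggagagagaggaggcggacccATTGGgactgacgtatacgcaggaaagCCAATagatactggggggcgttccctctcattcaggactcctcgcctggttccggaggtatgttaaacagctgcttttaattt
The called window had 25 CpG, 62.3% G and C, 3 GC boxes and 3 CCAAT boxes. The uncalled window had 14 CpG, 1 GC box and 2 CCAAT boxes. CCAAT letters occurred in 37.4% of all windows, and in 38.1% of those within a region called in all 4 libraries, so they did not set the called windows apart. The extents of the peaks around the starts of Sin3a and Ncor1 are mapped next.

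**Figure D3:**
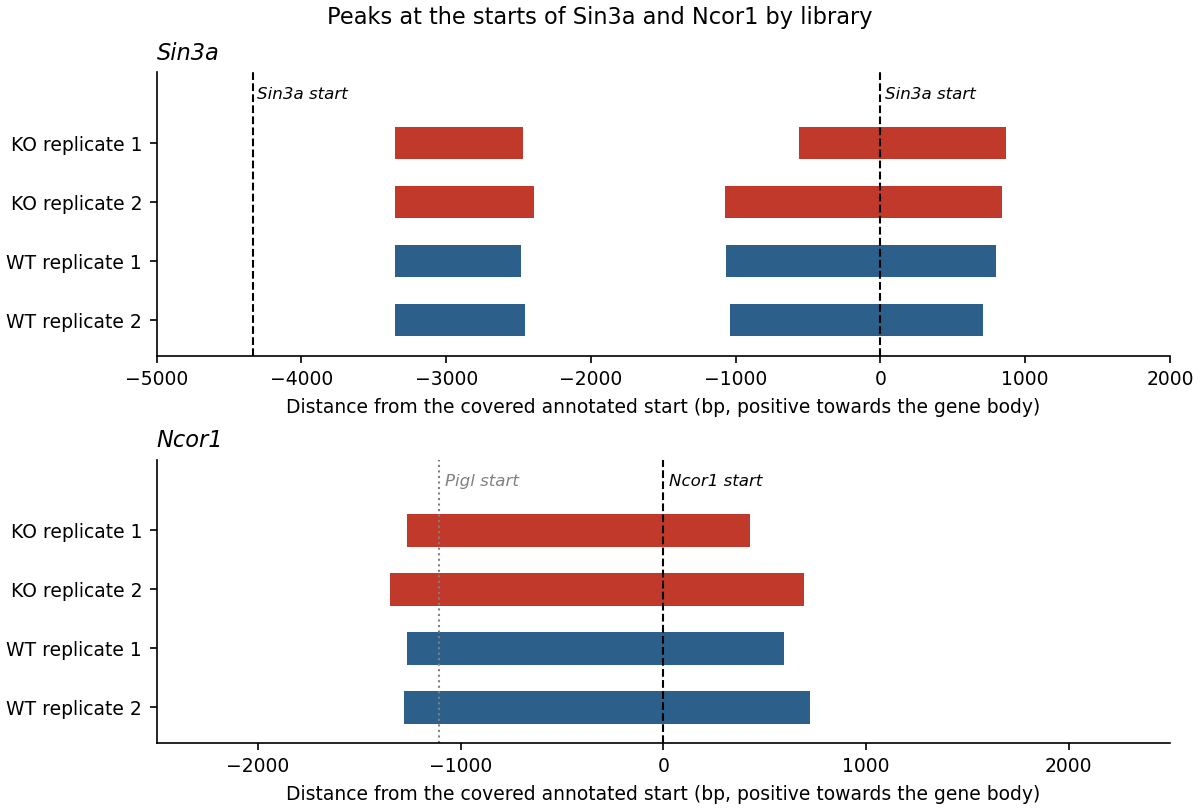
Peaks of each library (bars, to scale, KO libraries above WT) around the starts of Sin3a and Ncor1, with distance in bp from the start that carries a peak. Dashed lines mark annotated starts and the dotted line the start of Pigl; the upstream start of Sin3a, at -4336 bp, lies outside every peak.

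Rcor1, which encodes CoREST, the scaffold that joins HDAC1 and HDAC2 to the lysine demethylase KDM1A, was unlike the other 6 genes in that it had 10 regions. They ran from -29.5 to 98.0 kb relative to its start, over a gene of 76536 bp whose nearest protein-coding neighbour, Traf3, is 50419 bp away. The other 6 genes together had 9 regions. The gap to the neighbours bears on this count, since a region can be taken for a gene only where no other gene is nearer. Counting every region within 50 kb regardless of other genes gave 16 at Rcor1, 14 at Hdac3, 10 each at Hdac1 and Sin3a, 8 at Ncor1 and 2 each at Hdac2 and Hdac8. Of the 10 regions at Rcor1, 4 were called in all 4 libraries, 4 in 3 and 2 in 1. Among all assigned regions, 59.5% were called in all 4 libraries. By library, 8 and 6 were called in KO, against 7 and 9 in WT, again with no matching shares over all regions.

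The start of Rcor1 was covered by a region of 595 bp (region 5, chromosome 12, 111038905 to 111039499). Fold was 7.04 and 6.16 in KO, against 5.38 and 6.25 in WT. Fold percentile was 88.2 and 81.3 in KO, against 68.8 and 84.8 in WT, and −log10 q percentile was 98.4 and 97.1 in KO, against 94.8 and 98.0 in WT. The mean difference in fold percentile, 7.95 points, was the highest of the 12 regions, but WT replicate 2 lay between the KO libraries. Without WT replicate 1 the difference was -0.0396 points, and without WT replicate 2 it was 15.9. Its promoter window (GRCm38.p6, plus strand) is shown for its run of GC boxes.
Rcor1 start, chr12:111039117-111039416: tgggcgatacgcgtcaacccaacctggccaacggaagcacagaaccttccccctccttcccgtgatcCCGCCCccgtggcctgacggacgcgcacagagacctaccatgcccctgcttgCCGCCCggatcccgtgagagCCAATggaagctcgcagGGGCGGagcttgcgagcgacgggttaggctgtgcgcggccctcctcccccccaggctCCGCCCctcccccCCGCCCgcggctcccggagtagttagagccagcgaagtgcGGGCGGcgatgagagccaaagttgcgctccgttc
It held 6 GC boxes on both strands together, 1 CCAAT box, 31 CpG and 69.3% G and C. All of its bases lay in the peak of every library.

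Inside Rcor1, region 6 (111071216 to 111072258), 32.4 kb into the gene, had peaks of nearly equal width in all 4 libraries. They were 1015 and 1004 bp wide in KO, against 996 and 1028 bp in WT, with fold percentiles of 88.4 and 78.6 in KO, against 81.7 and 83.5 in WT. By fold percentile it stood about as high in the lists as the gene-start region. Its −log10 q percentile was 89.4 and 86.2 in KO, against 86.6 and 86.3 in WT, lower than at the gene-start region in every library. Region 7 (111088231 to 111088599), 49.0 kb into the gene, had peaks of 153 and 155 bp in KO, against 183 and 369 bp in WT. This was the only case of the 12 in which both KO peaks were narrower than both WT peaks, at a ratio of means of 0.558. Its fold percentile was 78.6 and 54.5 in KO, against 59.3 and 58.2 in WT, so the KO libraries lay on either side of WT.

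Upstream of Rcor1, region 2 (111016701 to 111017269) was called throughout, 22098 bp before the gene. Fold percentile was 73.0 and 64.6 in KO, against 72.8 and 84.1 in WT, a mean difference of -9.69 points with overlapping libraries. The 6 regions missing from some libraries had low fold wherever they were called, with fold percentiles from 0.482 to 43.0. By −log10 q percentile, region 4 stood higher, at 54.3 in KO replicate 1 and at 32.6 and 37.9 in WT. All other −log10 q percentiles of these regions lay from 0.439 to 33.9. Regions 3 and 4, 3883 and 965 bp before the gene, were both called in KO replicate 1 and both WT libraries and missed by KO replicate 2. At region 4 the peak of KO replicate 1 ran from -1467 to -965 bp relative to the start, against -1840 to -1341 and -1780 to -1341 bp in WT. This KO peak thus overlapped the WT peaks only in part, and no second KO library had a peak there to compare. Region 1 was missed by WT replicate 1 and region 9 by KO replicate 1. Region 8 was called in WT replicate 2 only and region 10 in KO replicate 1 only.

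**Figure D4:**
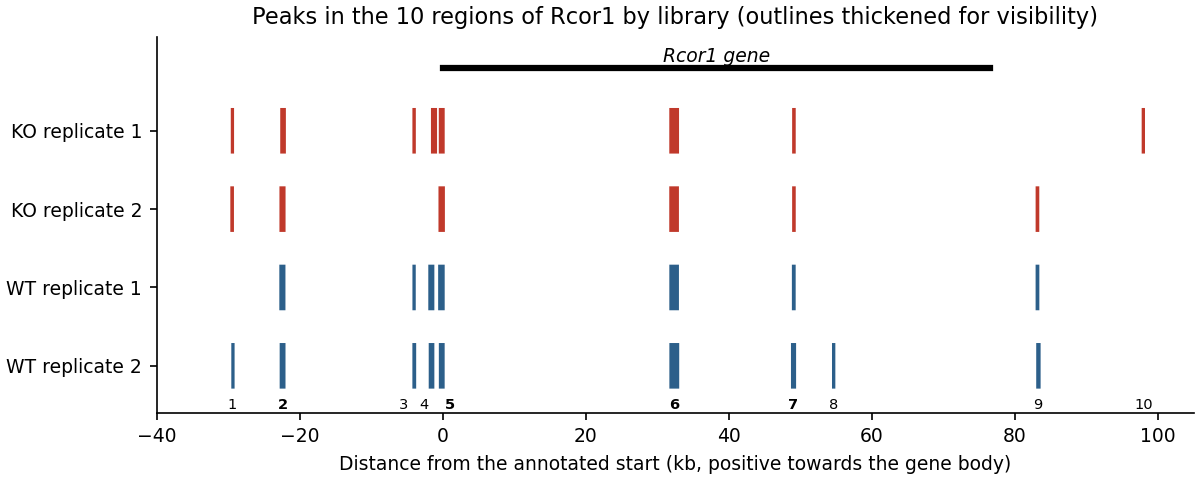
Peaks of each library in the 10 regions of Rcor1 (KO libraries above WT), by distance in kb from the annotated start; the black bar is the gene, outlines are thickened so that narrow peaks can be seen, and bold numbers mark regions called in all 4 libraries. Regions 2, 5, 6 and 7 are present in each library, while the others are missing from 1 to 3 of them.

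Ordered by the mean fold percentile of the gene-start region over 4 libraries, Hdac1 came first at 98.7 ± 0.533 (SD, n = 4), followed by Hdac2 at 84.1 ± 4.99, Rcor1 at 80.8 ± 8.46, Hdac3 at 75.1 ± 6.83, Hdac8 at 50.6 ± 7.78, Ncor1 at 47.0 ± 7.02 and Sin3a at 2.18 ± 0.827. The ranges of Hdac2, Rcor1 and Hdac3 overlapped from each to the next, as did those of Hdac8 and Ncor1. Hdac1, the group of Hdac2, Rcor1 and Hdac3, the pair of Hdac8 and Ncor1, and Sin3a did not overlap at these steps. The order depended on the genotype and on the column. In KO libraries Ncor1 (mean 45.6) stood above Hdac8 (44.7), and in WT libraries Hdac3 (80.4) stood above Rcor1 (76.8). By −log10 q percentile over 4 libraries, Rcor1 (97.1) stood above Hdac2 (90.0), and Sin3a (74.3) above Ncor1 (66.4) and Hdac8 (40.6).

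Between genotypes, fold percentile was higher in both KO libraries than in both WT libraries at 2 of the 12 regions called throughout. These were the gene-start regions of Hdac1 and Sin3a. Over all 53062 such regions this held for 16.9%. Fold percentile was lower in both KO libraries at 2 of 12, the gene-start regions of Hdac3 and Hdac8, beside 18.1% of all such regions. Among the 9567 regions of this kind that touch a promoter window, the shares were 20.0% higher and 14.9% lower. Counts of 2 in 12 are near these backgrounds in both directions. Each of these regions was a gene-start region, so the counts are also 2 of the 7 gene-start regions in each direction. The shares over 13852 gene-start regions called in all 4 libraries were 18.8% higher and 15.7% lower. Counts this small were not tested. Leaving out a library makes separation easier to meet. Without KO replicate 2, fold percentile was higher in KO at 9 of 14 regions called in every remaining library and lower at 3. Over all regions 30.7% were higher and 37.3% lower. Without KO replicate 1, 3 of 13 were higher and 7 lower, beside 34.1% and 31.8%. Without WT replicate 1, 3 of 13 were higher and 4 lower, beside 30.5% and 37.3%. Without WT replicate 2, 5 of 12 were higher and 2 lower, beside 35.9% and 32.5%. Against WT, KO replicate 1 alone thus stood higher at most of its regions and KO replicate 2 alone lower at most of its regions. The median KO-minus-WT difference was 0.891 points over the 12 regions and -0.219 over all, where the quartiles were -6.24 and 5.15. The members' differences ran from -11.9 to 7.95 points, as marked on the distribution of all regions below.

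Peak width was greater in both KO libraries at 1 of 12 regions and smaller at 1 of 12, beside 16.2% wider and 16.9% narrower among all regions called in all 4 libraries, and 17.4% and 15.3% among those that touch a promoter window. Without KO replicate 1, 5 of 13 regions were wider in KO and 3 narrower, beside 37.6% and 27.9% over all regions. Without KO replicate 2, 3 of 14 were wider and 5 narrower, beside 27.5% and 39.7%. Without WT replicate 1, 3 of 13 were wider and 2 narrower, beside 29.6% and 36.1%. Without WT replicate 2, 4 of 12 were wider and 5 narrower, beside 35.1% and 30.8%. The median ratio of mean widths, KO over WT, was 0.984 over the 12 regions and 0.997 over all. The highest ratio was 1.37, at Hdac8, where the genotypes overlapped.

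**Figure D5:**
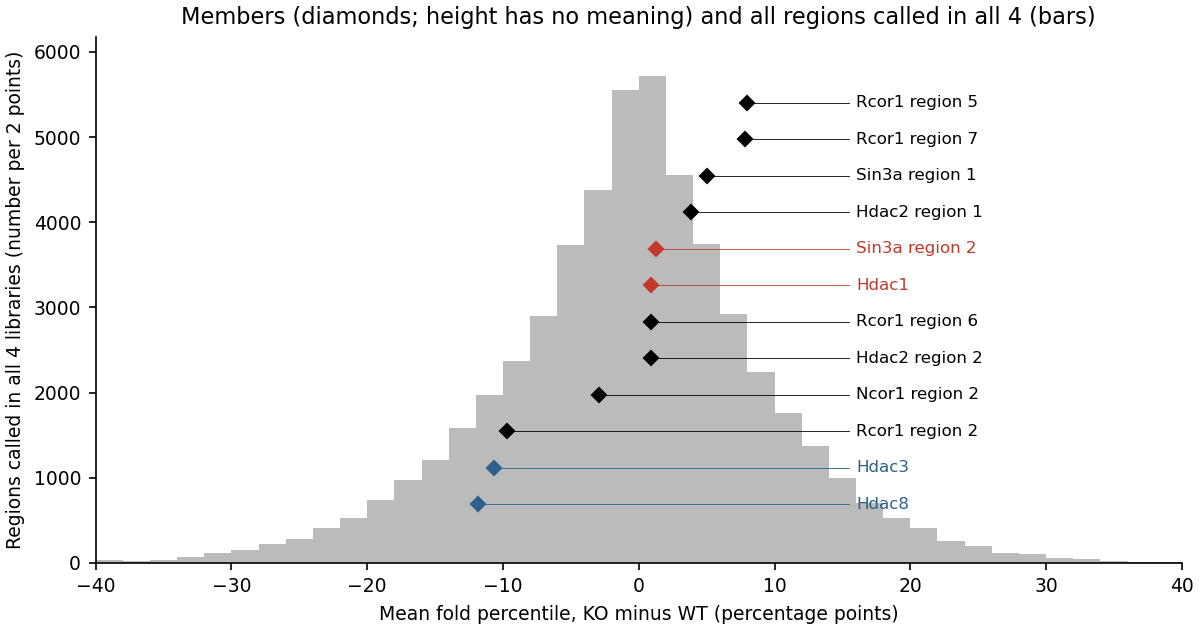
Difference in mean fold percentile, KO minus WT in percentage points, for all regions called in all 4 libraries (grey bars, number of regions per 2 points) and for the 12 regions of the 7 genes (diamonds, whose height has no meaning). Red marks regions with both KO values above both WT values (Hdac1 and Sin3a region 2), blue the reverse (Hdac3 and Hdac8) and black those that overlap.

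Other genes of the same complexes were described as a list of 41, with 289 regions. Every library had a peak in 176 of them (60.9%). The KO-only regions numbered 7 (2.42%) and the WT-only regions 4 (1.38%), beside the 59.5%, 1.44% and 1.94% of all assigned regions given above. The KO-only regions were near Suds3 of the SIN3 complex, Phf21a and Gse1 of CoREST, Mta3, Chd4 and Cdk2ap1 of NuRD and Trerf1 of the mitotic deacetylase complex MiDAC. The WT-only regions included one near Tbl1xr1, a subunit of the NCoR complex that binds histones, and others near Mta3 and Mbd2 of NuRD. All 11 stood below the middle of their lists, with fold percentiles from 1.66 to 44.5. The widest, 787 bp inside Mta3 (chromosome 17, 83823321 to 83824107), had peaks of 209 and 753 bp in KO, at fold percentiles of 5.19 and 11.5. No complex had more than 3 regions in either direction, so counts per complex were too small to compare.

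The gene-start region was called in all 4 libraries for 38 of the 41 partner genes, beside 78.9% of 17559 genes with a region. At 34 of the 38 it covered an annotated start, or a gene end where no start was given. At Trerf1 it lay 4122 bp away. Rcor2, the paralog of Rcor1, and Chd3, a NuRD remodeller, had theirs in 1 library each, and Phf21a in 2. The region of Chd3 lay 563 bp from the nearest annotated position used. Among the 38, both KO fold percentiles were above both WT values at 11 and below them at 5. Over all 13852 gene-start regions called in all 4 libraries, 18.8% were above and 15.7% below. The same counts over the 176 partner regions were 31 (17.6%) and 30 (17.0%). By the distance between fold percentiles over 4 libraries, the partner gene most like Rcor1 was Gps2, a subunit of the NCoR complex, at 2.91 points. Arid4a of the SIN3 complex was nearest to Hdac1 at 3.81 points and Zmym3, a CoREST-associated gene, to Hdac2 at 5.45. For Sin3a the nearest was Mta3 at 9.38, and for Hdac3, Ncor1 and Hdac8 they were Sap30l, Rcor3 and Ing2 at 12.7, 18.5 and 19.5 points. Likeness over 4 libraries with 38 candidate genes is a description only.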

How the data were processed

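ATAC-seq peak lists of 4 libraries, 2 per genotype, were used as deposited. Per the submitters' processing notes, reads were trimmed with fastp and aligned with Bowtie2 to mm10, and peaks were called with MACS2. Versions were not given in the sources used here, nor were read shifting and peak filters. Each list is 1 library, not a pool, and skips 261 to 322 of its own peak numbers. In the deposited files, fold is a ratio of peak to background by the broadPeak format, −log10 p and −log10 q are the peak caller's, and the score is 10 times −log10 q cut to a whole number. The largest q was 0.0497. No counts are given, so depth is unknown and no intervals are given.

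Lists were merged (at least 1 bp), and regions were assigned to the nearest RefSeq protein-coding gene body within 50 kb. A region with several peaks in a library took the highest fold and the summed width. Exons were not used here. Promoter windows and sequences are from RefSeq (GRCm38.p6). 5 of the 7 genes matched a promoter entry; Hdac1 and Hdac3 were placed by their annotated ends. Merging, calling and assignment were tested on simulated peaks. The 7 genes, the partner and marker lists and the rule for named genes (all members, partner genes with genotype-only regions and, per member, the partner gene nearest in fold percentile) were chosen with earlier results of these data known. Values of some listed genes are not reported here. Alternatives are given in the closing section. Python 3.11.15, pandas 2.3.3 and numpy 2.4.6 were used.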

Additional observations from a re-analysis of the deposited data

How the results depend on the processing

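The count of regions called in all 4 libraries, 12, was 48 when every region within 50 kb was taken and stayed from 8 to 12 under the other planned settings that kept all libraries. Taking every region within 50 kb also gave 1 WT-only region, 5 regions with fold percentile higher and 8 with it lower in both KO libraries, 14 wider and 6 narrower. Of those 48 regions these are 10.4%, 16.7%, 29.2% and 12.5%, beside 16.9%, 18.1%, 16.2% and 16.9% of all regions called in all 4 libraries. With each list shortened by its weakest 25% or 50%, 1 region was higher in both KO libraries, since the start of Sin3a was lost; with 50% removed, 1 was lower and 1 region was WT-only. Where peaks had to cover 50% of a region, 1 was lower and 0 were narrower in KO, and with gene bodies only 0 were wider. Leaving out 1 library gave 0 to 1 KO-only and 1 to 2 WT-only regions, 12 to 14 regions called throughout, 3 to 9 higher, 2 to 7 lower, 3 to 5 wider and 2 to 5 narrower. Such a setting leaves 1 library for its genotype. Ranking −log10 q, or only regions called in all 4 libraries, gave the same counts of 2 higher and 2 lower. No test was made, so no replicate block could be fitted to one. As a paired count added after the data were seen, KO above WT within both same-numbered pairs held at 4 regions for fold percentile and at 3 for width, and KO below WT at 2 and 1; over all regions called in all 4 libraries fold percentile was higher within both pairs at 24.9% and lower at 26.9%, and width at 24.6% and 25.7%. The labels do not say that a replicate number marks a shared batch. Differences in fold percentile between the replicates of KO and of WT correlated at r = 0.00905 over 53062 regions of the same 4 lists, a measure that takes out list-wide effects such as the highest fold, which did move with the number. Of 79 recomputed gene-start differences, 37 could not change sign, because the setting repeats or rescales the value; of the other 42, 38 kept it. Values are missing where a gene-start region was no longer called throughout, at Sin3a with 25% or 50% removed, at Hdac8 and Ncor1 with 50% removed and at Hdac8 with 50% coverage.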
